A study of Mus musculus with 12 samples.

Results

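Osteoclast-like cells are described here in mouse tumours of a series on the Mif gene, whose product MIF is a cytokine secreted by many cell types. The cells were selected on measured levels of the 3 marker genes. A cell was called osteoclast-like when it held at least 3 unique molecular identifiers (UMIs, single counted transcripts) of Ctsk, at least 3 of Acp5 and at least 1 of Mmp9. By this gate 1072 of 116375 cells that could be assigned to a hashed sample were osteoclast-like. The gate uses measured values, so the levels of these 3 genes describe the cells and are not tested.

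Tumours were grown from lines that the labels name SCC35. Control lines 15 and 18 gave 18 tumours and Mif knockout (KO) lines 19 and 24 gave 17 tumours at days 6, 10 and 16. A further 7 hashed samples of these lines carry day 0, and the sources used here do not say what they consist of, so they enter no comparison. A further 3 tumours, called WT in the deposited hashtag sheet, were present at days 6, 10 and 16 and belong to no labelled group, so only their values are given. Line is nested in group, with 2 lines on each side, and the sources used here do not say whether a line is a single clone. The samples were each stained with their own hashtag, an antibody with a DNA barcode, sorted for live cells and pooled into 6 libraries for droplet RNA sequencing. Nothing in the labels says which tumours came from separate animals, so p-values measure the spread between tumours as hashed.

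The libraries held 151385933 to 239699029 gene UMIs, and 163866 of 176381 barcodes passed the cell filter. The labels were checked against Mif in the cells outside both gated classes. There Mif had 1658 to 2979 CPM (counts scaled to a common library total) in the 11 samples of line 15, day 0 included, 1755 to 2671 in the 10 of line 18, 39.3 to 461 in the 11 of line 19, 224 to 1232 in the 10 of line 24 and 2121 to 2504 in the 3 WT tumours. All control samples lay above all KO samples. Pairs of libraries shared 3.41% to 4.83% of the barcodes of the smaller one. Of the osteoclast-like barcodes, 186 also occurred in another library, and 0 were osteoclast-like in both.

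Osteoclasts are large cells of the monocyte lineage that dissolve bone. Precursors differentiate under CSF1, which acts through CSF1R, and RANKL, the product of Tnfsf11, which acts through RANK, the product of Tnfrsf11a. They fuse, attach through integrins, pump acid with a vacuolar proton pump and secrete cathepsin K (Ctsk) and MMP9, and they carry tartrate-resistant acid phosphatase (Acp5).

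The promoters of 2 genes that lead the difference from macrophages are shown because both genes were nearly absent from macrophages and the RefSeq table lists 1 promoter for each. Oscar encodes an osteoclast receptor of collagen, and Rufy4 encodes an adaptor that acts on lysosomes. The sequences are RefSeq's, in build GRCm38.p6, from 250 bases before to 50 after the start of the gene, written 5′ to 3′ on the gene's strand. Oscar lies at chr7:3616108-3616407 on the minus strand and Rufy4 at chr1:74125291-74125590 on the plus strand.
Oscar: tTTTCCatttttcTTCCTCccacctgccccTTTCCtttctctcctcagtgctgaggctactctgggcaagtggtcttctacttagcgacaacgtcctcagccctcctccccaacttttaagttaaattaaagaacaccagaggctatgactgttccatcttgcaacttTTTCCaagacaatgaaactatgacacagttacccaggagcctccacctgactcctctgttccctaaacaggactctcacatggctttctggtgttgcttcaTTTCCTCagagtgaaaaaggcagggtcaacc
Rufy4: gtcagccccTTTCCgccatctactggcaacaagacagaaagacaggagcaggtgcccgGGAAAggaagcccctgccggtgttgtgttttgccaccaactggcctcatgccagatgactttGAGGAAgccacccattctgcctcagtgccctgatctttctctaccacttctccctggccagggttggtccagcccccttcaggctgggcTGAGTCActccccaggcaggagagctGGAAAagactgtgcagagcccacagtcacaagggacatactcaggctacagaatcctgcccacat
Capitals mark 3 motifs searched on both strands: TGANTCA, bound by AP-1, GGAAA, the core bound by NFAT, and GAGGAA, a core bound by PU.1. GGAAA and GAGGAA can overlap. The Oscar window held 0 matches of TGANTCA, 4 of GGAAA and 2 of GAGGAA. The Rufy4 window held 1, 3 and 1. Of 32851 promoters of this length in the table, 7.81% held TGANTCA, 61.3% held GGAAA and 28.3% held GAGGAA. A match is a string of letters and not a measured site. Of the 15 leading genes described below, 11 had a promoter in the table.

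Osteoclast-like cells were rare in tumours of both KO lines and far more frequent in most tumours of both control lines. At day 6 of line 15 they were also rare, with 4 of 4864 assigned cells (0.0822%). After day 0 they made up 1053 of 46567 assigned cells in control tumours (2.26%, 95% exact interval 2.13% to 2.40%) and 9 of 55010 in KO tumours (0.0164%, 0.00748% to 0.0311%). WT tumours held 10 of 9029 (0.111%, 0.0531% to 0.204%). These intervals cover counting error only. In a dissociated tumour, fewer cells of a type and poorer recovery of that type cannot be told apart.

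In line 15 the share was 0%, 0.0608% and 0.202% of assigned cells in the 3 tumours of day 6. It was 6.95%, 6.50% and 6.17% at day 10 and 3.11%, 2.50% and 2.70% at day 16. Each day of line 15 was thus separate from the other days, with day 10 highest. In line 18 the share was 3.95%, 3.32% and 2.01% at day 6, 0.342%, 4.44% and 3.80% at day 10, and 0.461%, 1.28% and 0.856% at day 16. One day 10 tumour of line 18 lay below all of its day 6 and day 16 tumours.

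In the 9 tumours of KO line 19 after day 0, 8 osteoclast-like cells were found, 3 at day 10 and 5 at day 16, with at most 0.103% in any tumour. The 8 tumours of KO line 24 held 1 such cell, at day 10. At day 6 line 19 had 0 of 11364 cells, which by 3 counts of the total allows a share of up to 0.0264%, and line 24 had 0 of 3064, which allows up to 0.0979%. The upper ends of the 95% exact intervals were 0.0325% and 0.120%. The 7 day 0 samples held 0 osteoclast-like cells among 5769 and only 18 C1q macrophages, so they are not read as early tumours without these cells. WT tumours, with 1 tumour a day, had 0.0314% at day 6, 0.189% at day 10 and 0.112% at day 16.

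**Figure D1:**
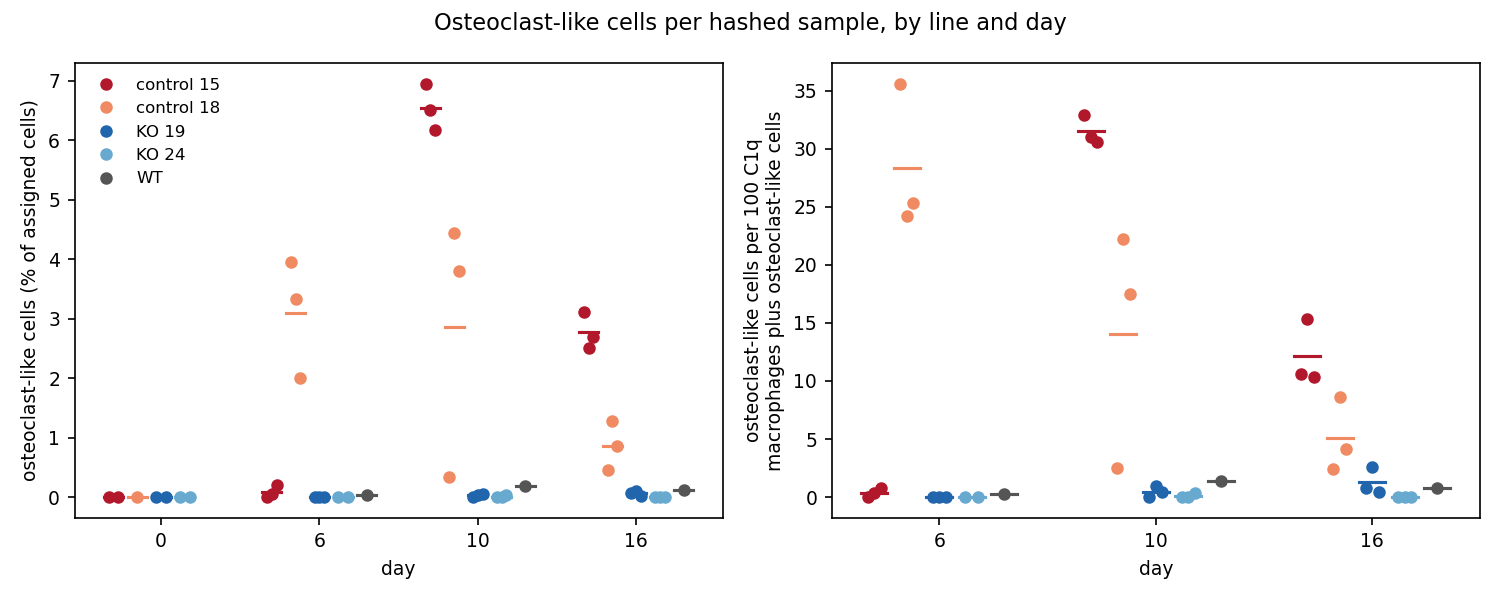
Osteoclast-like cells per hashed sample (points) and their mean (lines) by line and day, as a percent of assigned cells (left) and per 100 C1q macrophages plus osteoclast-like cells (right). Control tumours reach 6.95% at day 10 of line 15, while no KO tumour exceeds 0.103% and no WT tumour 0.189%.

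Over the 18 control and 17 KO tumours after day 0, the mean share was 2.70% ± 2.27 (SD, n = 18) and 0.0191% ± 0.0309 (SD, n = 17), a difference of -2.68 percentage points. A two-sided permutation test within days, with 100000 resamples, gave p = 2e-05. By day, the two-sided exact permutation tests, Benjamini-Hochberg adjusted over the 3 days, gave 0.0736 at day 6, 0.00325 at day 10 and 0.00325 at day 16. At day 6 the tumours of line 15 overlapped those of the KO lines. At days 10 and 16 all 6 control tumours lay above all 6 KO tumours. With the line as the unit, the mean was 3.13% for line 15, 2.27% for line 18, 0.0326% for line 19 and 0.00381% for line 24, and the exact permutation test over 4 lines gave p = 0.333, the smallest value it allows.

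The difference also appeared within libraries that held both groups. One mixed library had 0.202%, 6.17% and 2.70% in its tumours of line 15 at days 6, 10 and 16, against 0%, 0.0495% and 0.0278% in those of line 19. It also held the day 16 tumour of line 18 with 0.856%. The other had 2.01% and 3.80% in its tumours of line 18 at days 6 and 10, against 0%, 0.0305% and 0% in those of line 24 at days 6, 10 and 16. Its 3 WT tumours, handled with the same line 18 tumours, had the low values given above. Over both mixed libraries together the difference was -2.60 percentage points (p = 0.00916, permutation within days and across the 2 libraries). Within a single library, the exact permutation p was 0.1 for line 19 against line 15. It was also 0.1 for line 24 against line 18. Each is the smallest value that so few tumours allow. Cells below 3000 UMIs were 28.5% of assigned cells in control, 33.5% in KO and 25.4% in WT tumours. With these cells left out and the rest thinned to 3000 UMIs before gating, the difference was -2.69 points (permutation p = 2e-05).

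C1q macrophages, the reference class, held at least 3 UMIs of C1qa, C1qb and C1qc together and none of Ctsk. They were present in all lines after day 0, at a median of 15.7% of assigned cells for line 15, 13.5% for line 18, 7.16% for line 19, 14.3% for line 24 and 13.5% for the WT tumours. Per 100 C1q macrophages plus osteoclast-like cells, osteoclast-like cells numbered 15.3 ± 12.5 (SD, n = 18) in control and 0.330 ± 0.664 (SD, n = 17) in KO tumours (permutation p = 2e-05). Set against macrophages, the class was therefore also larger in control tumours. In line 18 this ratio was highest at day 6, with 24.2 to 35.6, and in line 15 at day 10, with 30.6 to 32.9.

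The time course differed between the control lines. From day 6 to day 16 the mean share increased by 2.68 percentage points in line 15 and decreased by 2.23 points in line 18. The difference of -4.91 points had p = 0.005 in an exact permutation of the line labels within days (400 arrangements, 6 tumours a line), a test added after the data had been seen. This is the smallest p that the test allows. Most of these tumours were in their line's own library, so line and library cannot be told apart. Over the control and KO tumours together, day 16 had 0.925% ± 1.19 (SD, n = 12) and day 6 had 0.867% ± 1.5 (SD, n = 11), and a permutation within lines gave p = 0.91. Within a line, 3 tumours against 3 cannot give an exact permutation p below 0.1. All 3 comparisons of days in line 15 and the comparison of day 16 with day 6 in line 18 reached that value, 0.15 after adjustment over 6 comparisons, and day 10 against day 6 in line 18 had an exact p of 0.9.

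The gated cells held many transcripts of the gate genes. Their median was 7882 UMIs and 2490 genes, with 47 UMIs of Ctsk, 40 of Acp5 and 20 of Mmp9. C1q UMIs were 0 in 831 of the 1072 cells (77.5%) and at least 3 in 83 (7.74%). The hashtag rule left out barcodes whose top hashtag was under 3 times the second. Doublets between tumours with unequal hashtag counts can remain, and doublets within a tumour remain. Cells of line 15 held a median of 9474 UMIs and 67 of Acp5, and cells of line 18 held 6611 and 29.

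Cells near the edge of the gate held less Atp6v0d2, an osteoclast subunit of the proton pump. The class as a whole had 588 CPM of Atp6v0d2. The 95 cells with 3 to 5 UMIs of Ctsk had 182 CPM and the 78 cells with 1 or 2 of Mmp9 had 285 CPM. Just outside, 76 cells that passed for Ctsk and Acp5 but had 0 UMIs of Mmp9 had 328 CPM, 58 cells with 1 or 2 of Ctsk had 157 CPM, and 29 cells with 1 or 2 of Acp5 had 61 CPM. C1q macrophages of all tumours had 7.91 CPM. Of the 76 cells without Mmp9, 73 came from control and 3 from KO tumours. Of the 58 cells with 1 or 2 of Ctsk, 57 came from control, 0 from KO and 1 from WT tumours. Of the 29 cells with 1 or 2 of Acp5, 23 came from control, 5 from KO and 1 from WT tumours, beside 9 KO cells inside the gate.

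The few gated cells outside control tumours also carried genes that the gate did not use. In the 9 KO cells Nfatc1, the transcription factor that drives osteoclast differentiation, had 55 UMIs, or 642 CPM (95% Poisson interval 484 to 835), and Ocstamp had 18 UMIs, or 210 CPM (125 to 332). In the 1053 control cells the values were 414 CPM (401 to 427) and 268 CPM (258 to 279). In the 10 WT cells they were 667 CPM (483 to 898) and 248 CPM (142 to 403). The intervals cover counting error only. Of the 9 KO cells, 5 were in the library of line 19. The other KO cells and all 10 WT cells were in mixed libraries that also held control tumours. Whether any of them carried a wrong hashtag was not tested. No KO tumour had more than 3 osteoclast-like cells, so the transcriptome of these cells was not compared between KO and control.

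The whole transcriptome was compared between osteoclast-like cells and C1q macrophages of the same tumour in the 15 control tumours with at least 10 cells of each, 6 of line 15 and 9 of line 18. Counts were summed per tumour and class and fitted with edgeR with the tumour as a block. Of 10061 genes tested, 2376 (23.6%) were higher and 2641 (26.2%) lower in osteoclast-like cells, together 49.9%, at a Benjamini-Hochberg adjusted p under 0.05. The 6 gate genes are left out of these counts. A gene near 0 in one class passed the count filter through the class where it was high, so its call is not independent of the filter, and the counts by gene list below are a description. The median log2 fold change over all genes was -0.03. Without line 15 the fit called 3106 genes, 3052 of them shared with the 5017. In 238 genes (2.37%) every osteoclast-like sum lay above every macrophage sum, and in 259 (2.57%) below. Osteoclast-like cells were deeper in all 15 tumours, with medians of 5282 to 12003 UMIs against 2374.5 to 5771.

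Of the fusion and differentiation genes, 7 of 9 tested were higher and 1 was lower, with a median log2 fold change of 5.30. Atp6v0d2 (ENSMUSG00000028238) had a lowest, median and highest value of 374, 626 and 881 CPM in osteoclast-like cells and 6.29, 12 and 28.3 CPM in C1q macrophages, which is 5.49 on the log2 fold scale (SE 0.10) with an edgeR adjusted p of 2e-32. The classes did not overlap over the 15 tumours. Dcstamp, a membrane protein that cells need for fusion, had 135, 213 and 388 CPM against 0, 4.96 and 8.35 CPM, a log2 fold change of 5.65 (SE 0.13). Ocstamp, its relative, had 135, 259 and 459 CPM against 1.73, 8.45 and 13.9 CPM, a log2 fold change of 5.30 (SE 0.13). Neither gene overlapped between the classes. Oscar had 26.5, 102 and 324 CPM against 0, 0 and 1.58 CPM, and Rufy4 had 40.5, 57.3 and 104 CPM against 0, 0 and 1.58 CPM. These are the genes whose promoters are printed above, and their log2 fold changes of 8.83 and 7.42 rest on macrophage levels near 0. Siglec15, a surface lectin of osteoclasts, and Tm4sf19 had log2 fold changes of 4.24 (3.67 without line 15 and 4.83 without line 18) and 3.75. Cd47, a broadly expressed surface protein, was lower by -0.59. Calcr, the calcitonin receptor of mature osteoclasts, was not tested, with 7 UMIs over the osteoclast-like cells of these tumours and 0 over the macrophages.

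Detection in single cells showed the same genes. In control tumours, thinning to 3000 UMIs left out 114 shallower osteoclast-like cells and 3000 shallower C1q macrophages. Atp6v0d2 was then found in 72.8% of the 939 osteoclast-like cells left and in 2.99% of the 4477 C1q macrophages left. Without thinning the shares were 89.8% and 4.09%, at median depths of 7882 and 3663 UMIs. Dcstamp was found in 41.4% and 1.34% of thinned cells. Of Atp6v0d2, Ocstamp, Dcstamp and Oscar together, 2 or more were found in 560 thinned osteoclast-like cells (59.6%) and in 14 macrophages (0.313%). At this depth 122 osteoclast-like cells (13%) had none of the 4.

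**Figure D2:**
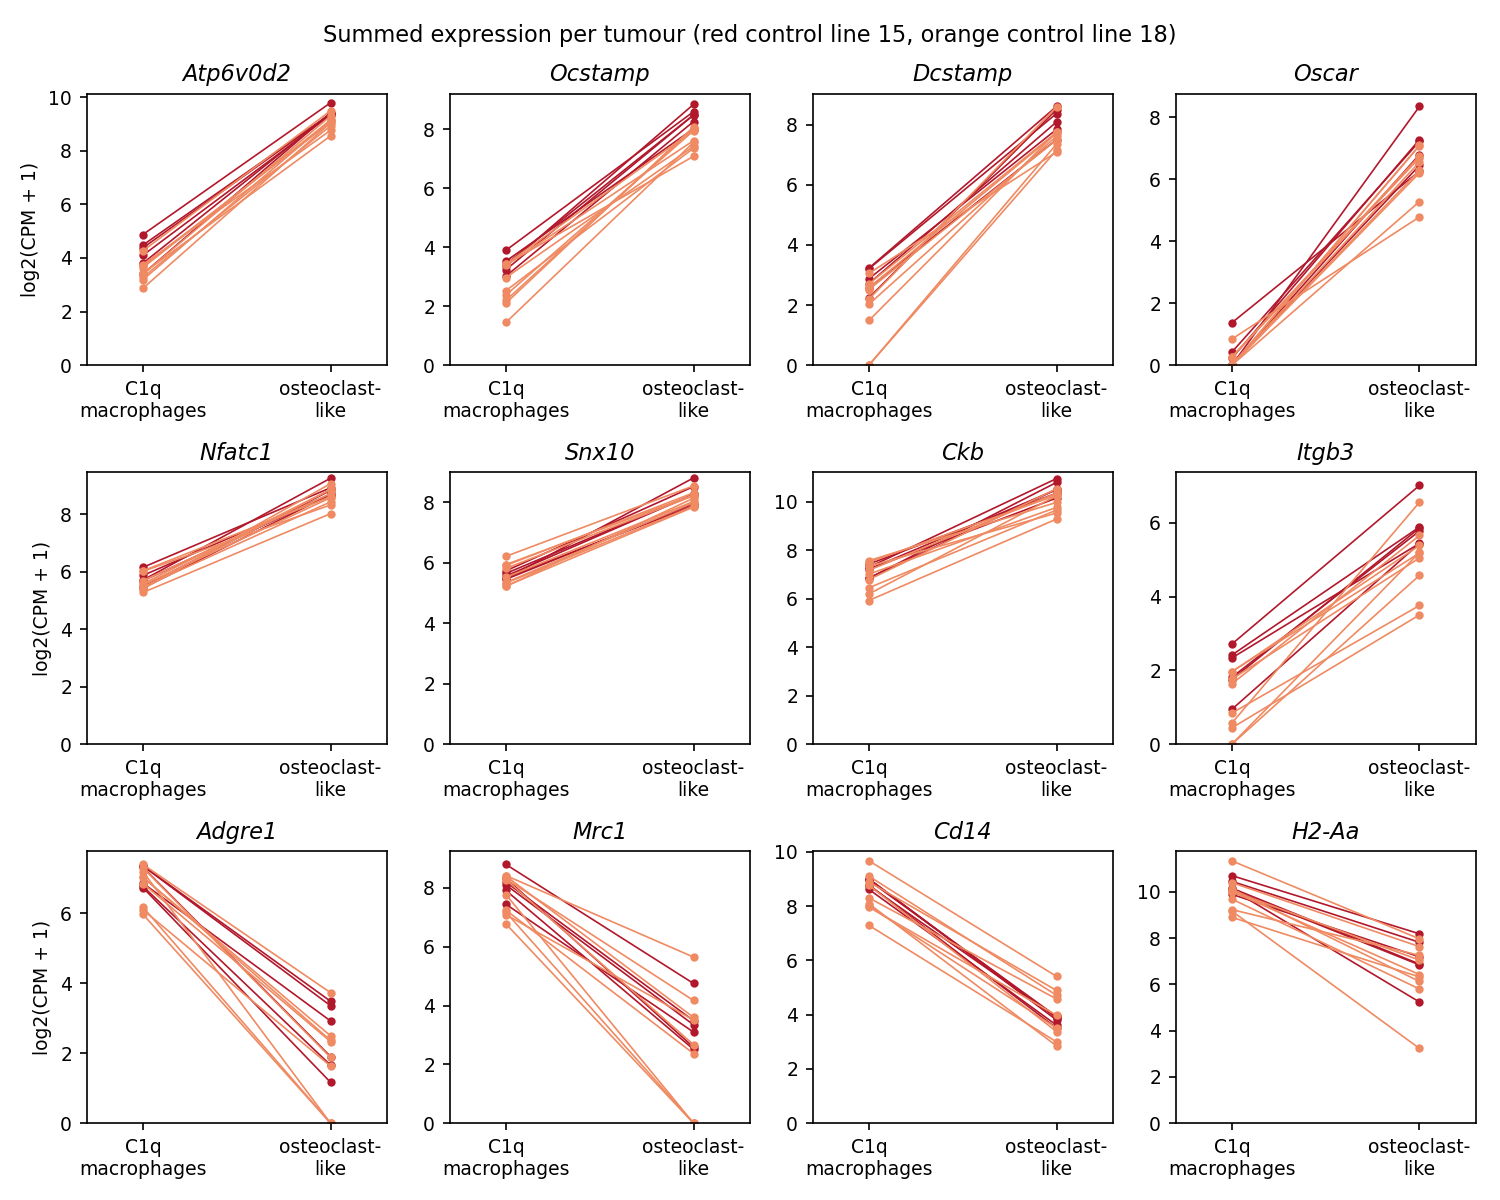
Summed expression as log2(CPM + 1) in C1q macrophages and osteoclast-like cells, with a line for each of 15 control tumours. The 8 osteoclast list genes are higher, and Adgre1, Mrc1, Cd14 and H2-Aa are lower, in osteoclast-like cells in every tumour.

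Of 17 genes of RANK signalling and transcription, 11 were higher and 4 lower, with a median log2 fold change of 0.80. Nfatc1 had a median of 416 CPM against 47 CPM and 3.13 on the log2 fold scale (SE 0.08), with an edgeR adjusted p of 9.85e-28, higher in 15 of 15 tumours. Jdp2, an AP-1 family factor, had 609 against 86.3 CPM (log2 fold change 3.06), and Prdm1, a repressor of macrophage genes in osteoclasts, had 127 against 21 CPM (2.61). The receptor genes differed less. Tnfrsf11a, which encodes RANK, had 121 against 46.3 CPM (log2 fold change 1.46), and Csf1r had 335 against 203 CPM (0.80). Src, a kinase that osteoclasts need for their ruffled border, Fosl2, Mitf, Spi1 and Tyrobp were also higher, by 1.90, 1.40, 1.06, 0.87 and 0.54. Fcer1g, which like Tyrobp encodes an adaptor of activating receptors, was lower by -1.10, and Fos, Tfe3 and Nfkb1 were lower by -0.34, -0.39 and -0.29. The calls of Tfe3 and Nfkb1 were each kept in 15 of 18 alternatives, with edgeR adjusted p of up to 0.248 and 0.268, and both were lost without line 15.

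Acid secretion genes were higher almost without exception. Of 20 tested, 19 were higher and 1 was lower, with a median log2 fold change of 1.60. Car2, the carbonic anhydrase that supplies protons, had a lowest, median and highest value of 40.9, 89.5 and 245 CPM against 0, 1.01 and 2.87 CPM, a fitted log2 fold change of 6.23 that depends on macrophage levels near 0. It did not overlap between the classes, and its log2 fold change was 5.46 without line 15 and 6.97 without line 18. Among pump subunits, Atp6v1b2 had a median of 970 against 162 CPM (log2 fold change 2.62) and Atp6v0c 4190 against 1390 CPM (1.62). The large a subunits went opposite ways. Tcirg1, which encodes the a3 subunit of osteoclasts, had 319 against 99.1 CPM (1.70), and Atp6v0a1, which encodes a1, had 12.1 against 43.2 CPM (-1.86). The d subunits differed in size as well, since Atp6v0d2 was higher by 5.49 and Atp6v0d1 by 0.23, a call kept in 14 of 18 alternatives, with an edgeR adjusted p of up to 0.331, and lost without line 15. Clcn7 and Ostm1, the chloride channel and its partner, were higher by 1.83 and 1.19, and Slc4a2, an anion exchanger, by 2.0. Snx10 and Plekhm1, which act in vesicle traffic to the ruffled border, were higher by 2.64 and 1.71.

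The list of matrix degradation outside the gate holds proteases and also the protease inhibitors Timp1, Timp2 and Timp3. Of its 16 genes tested, 3 were higher, 9 lower and 4 did not pass, with a median log2 fold change of -0.36. Of the inhibitors, Timp1 was lower by -0.52 and Timp2 by -0.20, and Timp3 at 0.03 did not pass, so 7 of the 9 lower genes encode proteases. Mmp14, a membrane-bound collagenase, had 461 against 199 CPM (log2 fold change 1.3). Mmp12 and Mmp13, which macrophages and other cells secrete, had 2.16 against 75.9 CPM (-4.84) and 1.01 against 32.1 CPM (-4.37). Without line 15 these log2 fold changes were -4.0 and -4.99. The lysosomal cathepsins were lower for Ctsc (-4.07), Ctss (-2.39), Ctsh (-1.66), Ctsl (-1.57) and Ctsb (-0.93) and higher for Ctsa (0.52). Mmp2 was higher by 0.48 and did not pass in 8 of 18 alternatives, with an edgeR adjusted p of 0.655 and a log2 fold change of 0.10 without the deepest cells. Cathepsin K, which is in the gate, had 4400, 6840 and 10600 CPM as its lowest, median and highest value, and Mmp9 had 1930, 3170 and 6830 CPM.

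Of 14 adhesion and podosome genes, 7 were higher and 5 lower. Itgb3, which encodes the integrin chain that osteoclasts use to bind bone, had 42.4 against 2.37 CPM (log2 fold change 4.25, on macrophage levels near 0), and its partner Itgav had 203 against 99.4 CPM (1.07). Actn1, an actin crosslinker, was higher by 1.14 and Tln1, which links integrins to actin, by 0.48. Itgb5, another partner of Itgav, was lower by -0.97. Spp1, which encodes osteopontin, a ligand of these integrins, had 2830 against 4230 CPM (-0.40), which did not pass with no replicate block (edgeR adjusted p 0.187).

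All 13 energy and iron genes tested were higher, with a median log2 fold change of 1.26. Ppargc1b, a coactivator of mitochondrial biogenesis in osteoclasts, had 95.2 against 9.26 CPM (log2 fold change 3.34, SE 0.10, edgeR adjusted p 1.34e-25). Ckb, the brain-type creatine kinase, had 1230 against 143 CPM (3.16), and Tfrc, the transferrin receptor, had 121 against 19.8 CPM (2.53). Esrra, Cyc1 and Idh2 were higher by 1.26, 1.57 and 0.48. Each of these 6 genes was higher in at least 14 of 15 tumours.

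Signals from osteoclasts to bone cells split in direction. Of 7 tested, 4 were higher and 2 lower. Sema4d, which restrains osteoblasts, was higher by 1.28, Lif by 1.31 on medians of 5.55 and 1.80 CPM, Pdgfb by 0.86 and Sphk1 by 0.54. Csf1 was lower by -0.47 and Efnb2 by -0.53. The call of Sphk1 was kept in 14 of 18 alternatives, that of Efnb2 in 15 of 17 and that of Csf1 in 17 of 18, with edgeR adjusted p of up to 0.174, 0.254 and 0.16. Those of Sphk1 and Efnb2 were lost without line 15. Tnfsf11 itself was not tested in these cells, with 18 UMIs in osteoclast-like cells and 19 in C1q macrophages of the 15 tumours.

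**Figure D3:**
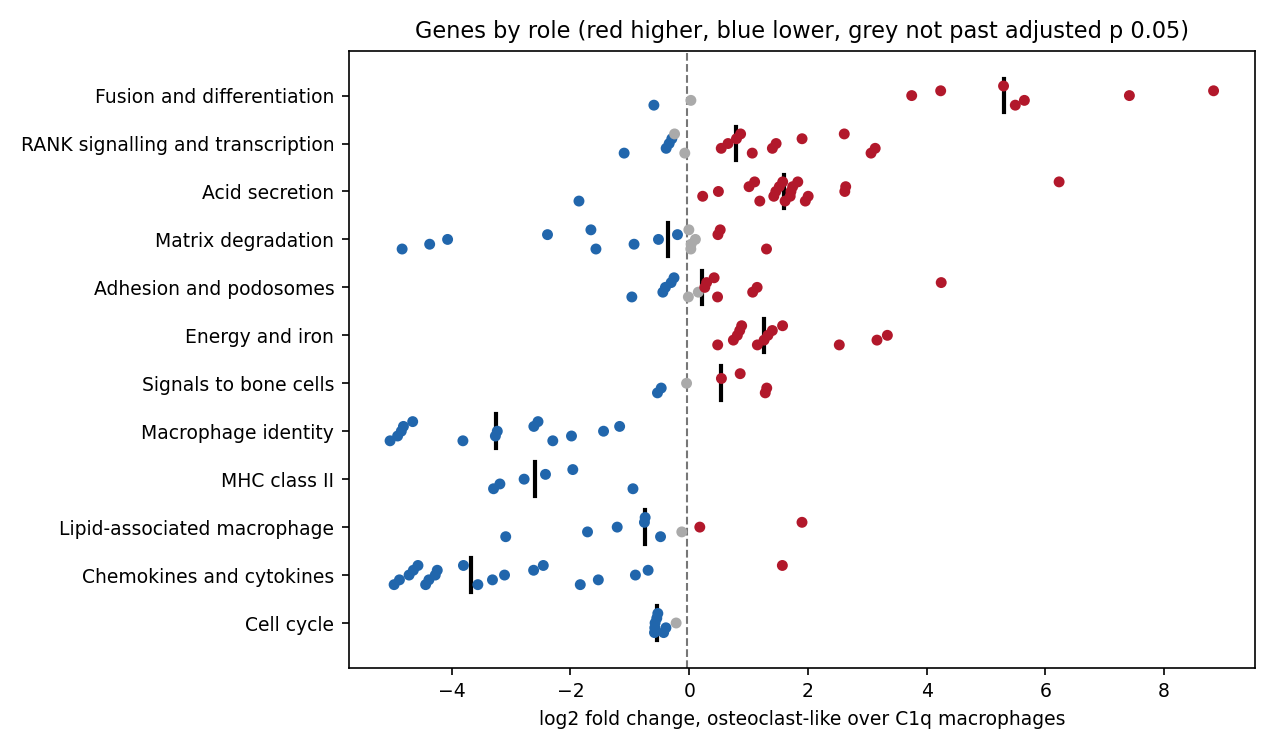
Log2 fold change of each tested gene in osteoclast-like cells over C1q macrophages by list (points, coloured by the edgeR call), with the list median (black) and the median of all genes at -0.03 (dashed). Fusion, acid and energy genes lie mostly to the right, and macrophage, MHC class II and chemokine genes mostly to the left.

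Macrophage genes were low. All 14 tested genes of the macrophage identity list were lower, with a median log2 fold change of -3.25. Adgre1, which encodes the macrophage marker F4/80, had a lowest, median and highest value of 0, 2.75 and 12.3 CPM against 61.7, 130 and 168 CPM (log2 fold change -4.91, on osteoclast-like levels near 0). Cd14, a receptor for bacterial lipopolysaccharide, had a median of 13.7 against 434 CPM (-4.85), and Mrc1, the mannose receptor, 7.55 against 274 CPM (-4.81). None of the 15 tumours went the other way for these 3 genes. Irf8, a transcription factor that restrains osteoclast formation, was lower by -3.23, and Bcl6, which Prdm1 represses, by -1.17. Apoe had 531 against 1870 CPM (-1.44).

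All 6 tested MHC class II genes were lower, with H2-Aa at 117 against 1080 CPM (log2 fold change -3.19), H2-Eb1 at -3.30 and H2-DMb1 at -0.95. Cd74, the invariant chain and also a receptor of MIF, had 905 against 3210 CPM (-1.96). Of 20 chemokines and cytokines, 19 were lower and 1, Ccl9, was higher. Ccl9, a chemokine that binds CCR1, had 461 against 149 CPM (1.57, SE 0.11, edgeR adjusted p 8.59e-15), higher in 15 of 15 tumours. Il1b had 9.71 against 555 CPM (-4.88) and Cxcl2 had 37.4 against 1250 CPM (-4.65), and Tgfb1 and Vegfa were lower by -0.91 and -0.69.

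Genes of lipid-associated macrophages split, with 2 of 9 higher and 6 lower. Lpl, lipoprotein lipase, was higher by 1.90 and Cd63 by 0.18 (called in 17 of 18 alternatives), and Fabp5 and Cd36 were lower by -1.71 and -3.09. Of 8 cell cycle genes 7 were lower, with Pcna at -0.57 and Mki67 at -0.58. A Mki67 UMI was found in 15.5% of thinned osteoclast-like cells and 23.9% of thinned C1q macrophages. Mif itself had a median of 1690 CPM in osteoclast-like cells and 1710 CPM in macrophages, a log2 fold change of -0.04 (edgeR adjusted p 0.51), lower in 9 of 15 tumours.

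Several leading genes lie outside the lists. Mt3, a metallothionein, had a lowest, median and highest value of 201, 1180 and 3100 CPM against 0, 0.793 and 3.16 CPM. It was 0 in 6 of the 15 macrophage sums and passed the count filter through the osteoclast-like sums, so its fitted log2 fold change of 10.18 depends on macrophage levels near 0. Slc9b2, a sodium-proton exchanger of osteoclasts, had 202, 251 and 425 CPM against 0.791, 2.50 and 7.14 CPM (6.61). Mst1r, the receptor of macrophage-stimulating protein, had a median of 59.2 against 0.338 CPM, with a log2 fold change of 7.01 that was 6.30 without line 15 and 8.01 without line 18. The other leading genes were Coq8a (5.53), which acts in coenzyme Q synthesis, Cd200 (5.43, with 4.86 without line 15 and 6.15 without line 18), an inhibitory ligand of myeloid cells, Cyp2s1 (5.15), Fam102a (4.93), Bdh2 (4.88) and Pheta1 (4.68). Among the leading genes in the other direction were Cxcl3 (-7.12), Cd300a (-5.82), Cd33 (-5.70), Tnip3 (-5.51), Sirpb1c (-5.10), Plbd1 (-5.10) and C5ar1 (-5.08). Other such genes were F13a1 (-5.05), Stap1 (-5.04), Lyz2 (-5.04), Cd300ld (-5.02), Ccl12 (-4.97), Ncf1 (-4.95) and Pld4 (-4.93). Most of these genes had osteoclast-like levels near 0, such as a median of 0 CPM for Cxcl3, and their order and exact folds varied with the tumours used. Without line 18 the log2 fold change was -8.61 for Cxcl3, -8.12 for Tnip3, -6.76 for Ccl12, -6.43 for F13a1 and -5.62 for Cd300ld. Without line 15 it was -4.87 for Tnip3, -6.93 for Sirpb1c, -4.07 for Ccl12 and -4.42 for Cd300ld. Ncf1 encodes a subunit of the phagocyte oxidase and C5ar1 a complement receptor. Cxcl3, Ccl12, Sirpb1c, Cd300a and Cd300ld have close relatives in the genome, and how reads shared between relatives were counted bears on their values. Lyz2, lysozyme, had 10.4, 52.5 and 347 CPM against 829, 2170 and 4200 CPM.

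Markers of other cell types were also summed in osteoclast-like cells. Over the 15 tumours the summed level of 9 neutrophil markers was 0 to 25 CPM in osteoclast-like cells and 4.86 to 30.5 CPM in C1q macrophages. Retnlg, Ly6g, Ngp, Camp and Lcn2 were at 0 in the former, and Retnlg, Ly6g and Camp also in the latter. The 1 neutrophil gene tested, S100a8, was called higher by 1.06 on the log2 scale with an edgeR adjusted p of 0.0303, on medians of 4.58 and 1.57 CPM, higher in 9 of 15 tumours. Of the untested ones, S100a9 had 0.102 against 1.28 CPM over all cells of the class, and Csf3r 0.102 against 6.33 CPM. Cxcr2 had 0.102 against 0.0546 CPM. Each of these had 1 UMI in osteoclast-like cells. The 6 T cell markers summed to 0 to 29.5 CPM and 4.57 to 44.3 CPM, and the 4 endothelial markers to 0 to 27.5 CPM and 13.9 to 39.9 CPM. The 4 keratinocyte markers summed to 0 to 12.6 CPM, with a median of 5.71 against 2.43 CPM in C1q macrophages and 2.95 CPM in the other cells. Of the 2 tested, 1 was called higher and 1 lower. Krt10 was called higher by 1.70 with an edgeR adjusted p of 4.23e-06, higher in 13 of 15 tumours. Krt14 was called lower, at 0.204 against 1.665 CPM over all cells of the class, a call that DESeq2 did not make. Krt5 and Krt1 were at 0 in osteoclast-like cells. The 6 fibroblast markers, led by collagens, summed to 27.4 to 804 CPM and 57.3 to 495 CPM, against 825 to 1761 CPM in the other cells. In the main fit 4 of the 6 were called higher in osteoclast-like cells, with a median log2 fold change of 0.63. These calls depend on the reference, which excludes cells with Ctsk. With a reference that allowed any level of Ctsk, 0 of the 6 were called higher, with a median of -0.03. DESeq2 called 1 higher. The part of RNA from these other cells in the results was not tested. The 7 osteoblast lineage markers summed to at most 23.9 CPM, with Sp7, Bglap2, Ibsp and Alpl at 0.

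Because KO tumours held too few of these cells, differences among the control tumours were examined instead, a comparison chosen after the data had been seen. It used the 12 control tumours of days 10 and 16, 6 of each line. Between days, 18 of 7232 genes (0.249%) were called higher and 0 lower at day 16, with 576 at an unadjusted p under 0.05 and 26 called by DESeq2. The count ranged from 3 to 32 when a tumour was left out, and was 3 with the thinned gate, 4 with the stricter gate and 8 with thinned cells. The genes named here were chosen after their values were seen. Apoe, an apolipoprotein, had a lowest, median and highest value of 406, 492 and 541 CPM at day 10 and 688, 1240 and 1390 CPM at day 16 (log2 fold change 1.20, SE 0.14, edgeR adjusted p 5.97e-05). Cfp, which encodes the complement factor properdin, had 140, 201 and 243 CPM and 265, 383 and 496 CPM (0.89, SE 0.13, adjusted p 0.00159). Gadd45g, a stress response gene, had 35.1, 52.8 and 79.1 CPM and 98.7, 124 and 155 CPM (1.16, SE 0.17, adjusted p 0.00159). The days did not overlap for these 3 genes, in either line, and the share of all genes without overlap was not counted. Lyz2 had a log2 fold change of 1.66 (edgeR adjusted p 0.025) on ranges that overlapped, 17.8 to 69.7 CPM and 11.4 to 329.6 CPM. That call was kept in 12 of 23 alternatives, with a log2 fold change down to 0.97 and an edgeR adjusted p of up to 0.648. In C1q macrophages of the same tumours Apoe was also higher at day 16 (log2 fold change 0.96, edgeR adjusted p 0.0301), while Cfp was at 0.01 (adjusted p 0.987) and Gadd45g at 0.38 (adjusted p 0.099).

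Between the lines, 13 genes were called higher and 8 lower in line 18 (21 of 7232, 0.29%), a count that ranged from 0 to 314 when a tumour was left out. Most tumours of each line were in that line's own library, so differences between lines and between libraries cannot be told apart. Car2 had 93.2, 159 and 233 CPM in line 15 and 41.4, 60.6 and 91.1 CPM in line 18 (log2 fold change -1.31, SE 0.23, edgeR adjusted p 0.0211). Ptpre, a tyrosine phosphatase of osteoclasts, had 155, 190 and 254 CPM and 42.4, 96.1 and 142 CPM (-1.15, SE 0.20, adjusted p 0.0211). Ccl9 had 400.4, 511 and 702 CPM and 199, 305 and 399 CPM (-0.83, SE 0.16, adjusted p 0.0423). The lines did not overlap for these 3 genes, by a small margin for Ccl9, and the share of all genes without overlap was not counted. The calls of Car2, Ptpre and Ccl9 were kept in 16, 14 and 13 of 23 alternatives, with edgeR adjusted p of up to 0.158, 0.158 and 0.2. Spi1, which encodes PU.1, was lower in line 18 by -0.57 and Mgp, a matrix protein, higher by 1.84, with edgeR adjusted p of 0.0423 and 0.0494. The call of Spi1 was kept in 10 of 23 alternatives and that of Mgp in 9, with edgeR adjusted p of up to 0.221 and 0.23. The log2 fold change of Mgp was 1.27 without day 16 tumour B of line 18 and 3.01 in single-line libraries alone. In C1q macrophages of the same tumours Mgp was also higher, by 1.62 (edgeR adjusted p 0.00902), and Spi1 was lower by -0.48 (edgeR adjusted p 0.0333). Cells of line 15 were deeper, as given above, and after thinning 8 of 3340 genes were called, 5 of them among the 21. In C1q macrophages of the same 12 tumours, 148 of 10478 genes (1.41%) were called between lines and 139 (1.33%) between days. A test of whether the line effect differed between the classes called 10 of 10161 genes (0.0984%), and for the day effect 14 (0.138%). In the fit of all 15 tumours edgeR called 0 of 10061 genes for a different class effect in line 15 and line 18, with 527 at an unadjusted p under 0.05, and no other tool was run. Within line 18 alone, day 16 was also set against day 6 over 9 tumours, and 155 of 6444 genes (2.41%) were called, 89 higher and 66 lower.

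**Figure D4:**
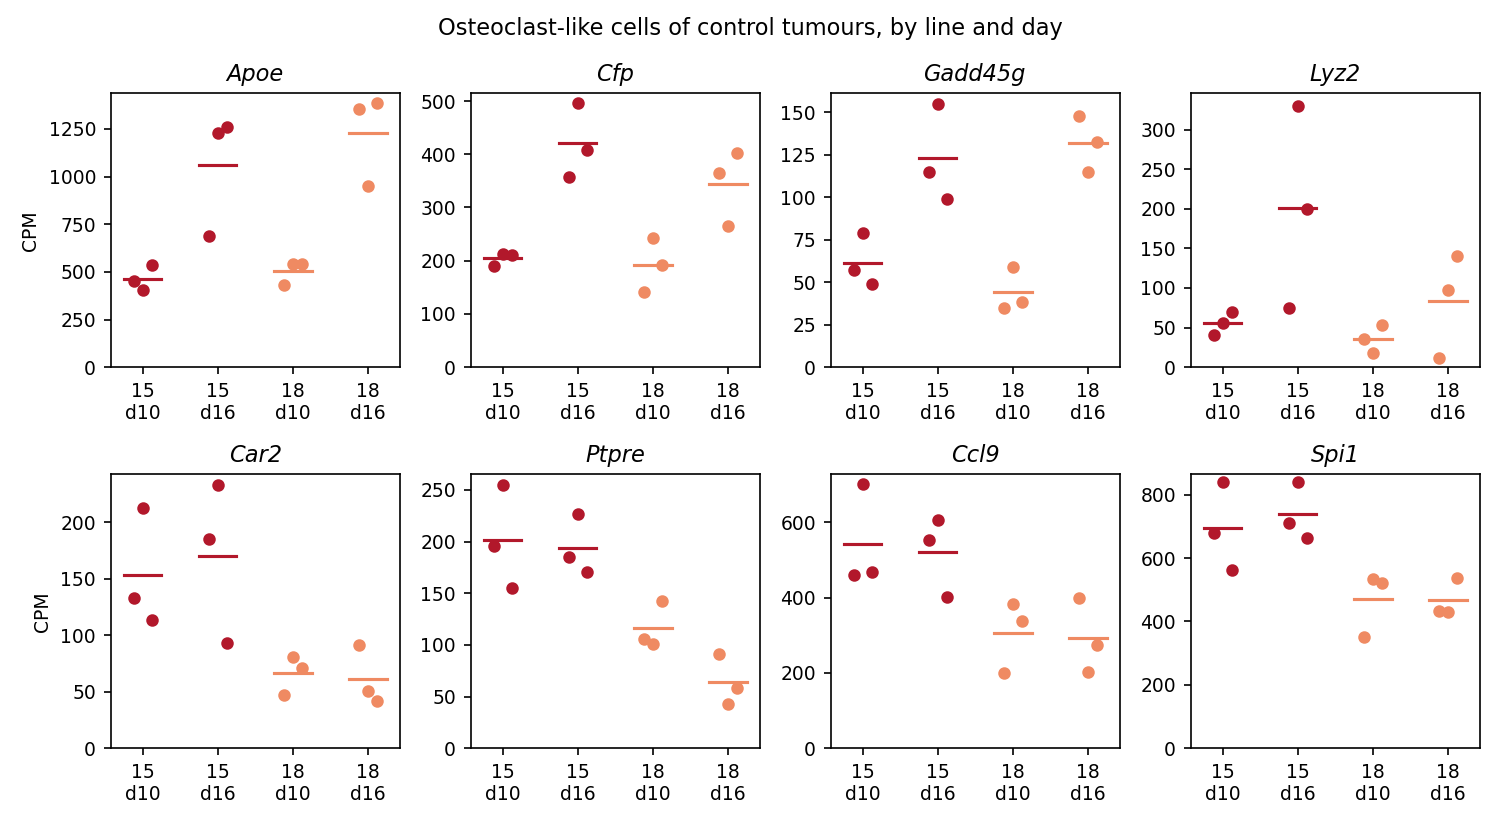
CPM of 8 genes in osteoclast-like cells of each control tumour (points) with the mean of 3 tumours (lines), by line and day. Apoe, Cfp and Gadd45g are higher at day 16 in both lines, and Car2, Ptpre and Ccl9 are lower in line 18 on both days.

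The factors that osteoclast precursors depend on were also read in the remaining assigned cells of each tumour, those in neither gated class. Tnfsf11 (RANKL) had a median of 6.31 CPM over the 9 tumours of line 15 after day 0, with 1.75 to 13.2 CPM, and 1.96 CPM in line 18, with 0.763 to 5.17 CPM. It had 2.70 CPM in line 19, with 1.76 to 7.57 CPM, and 8.42 CPM in the 8 tumours of line 24, with 2.21 to 18.1 CPM. Every tumour of line 19 lay within the range of the control tumours, and line 24 had both values within it and values above it. Csf1 had medians of 238, 187, 249 and 263 CPM in lines 15, 18, 19 and 24 and 371 CPM in the WT tumours. Il34, the other ligand of CSF1R, had medians of 15.0 to 22.2 CPM over the 4 lines, and Tnfrsf11b, the decoy receptor of RANKL, had medians of 0.555 to 2.24 CPM. These levels are a description, and no difference between groups was tested.

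**Figure D5:**
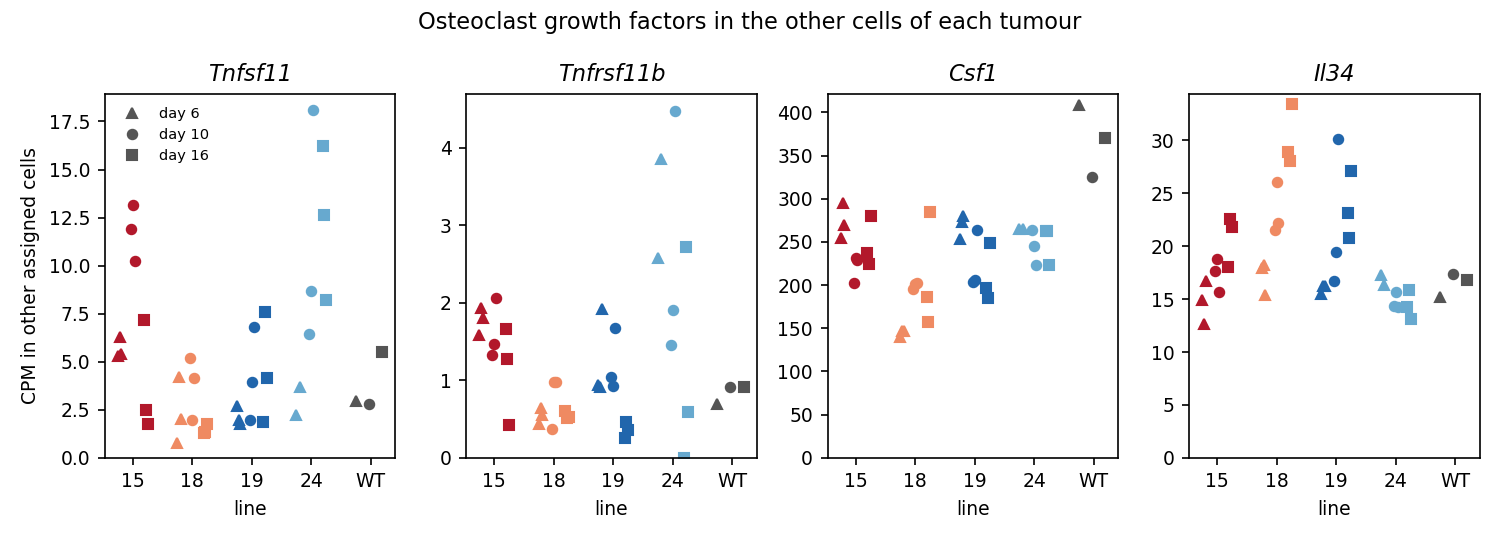
CPM of Tnfsf11, Tnfrsf11b, Csf1 and Il34 in the assigned cells outside the osteoclast-like and C1q macrophage gates, 1 point for each tumour after day 0, by line (axis, colour) and day (symbol). The highest Tnfsf11 level, 18.1 CPM, is in a tumour of KO line 24.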

How the data were processed

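Gene and hashtag UMI counts per barcode were deposited for 6 libraries of the 10x Genomics 5′ kit. The authors made these counts with Cell Ranger 6.0.0 on mm10, per the submitters' processing notes. A barcode counted as a cell with 300 or more genes and no more than 15% mitochondrial UMIs, and was assigned where the top hashtag had at least 20 counts and 3 times the second. The line and day came from the deposited hashtag sheet, and 2 hashtags that held less than 0.1% of the hashtag counts in a library were not used.

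Counts were summed per tumour and class and fitted with edgeR 4.0.16 (TMM, filterByExpr, quasi-likelihood test, Benjamini-Hochberg over all genes tested, threshold 0.05), and CPM is scaled by TMM factors in the fits. The class comparison has the tumour as a block, since both classes come from the same tumour. Scripts were tested on simulated data. Shares were tested by permutation. Gene positions and IDs follow GENCODE M21.

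The gate, the members and the gene lists were chosen with earlier results of these data known. Named genes are list members and, for the class comparison, the 15 of largest fold in each direction past the threshold with a mean log2 CPM of at least 4 and the same direction in every tumour. The planned comparison of osteoclast-like cells between KO and control was not run, because no KO tumour had 10 such cells. Alternatives covered cell and hashtag filters, the gate, thinning, scaling, DESeq2 1.42.0, count filters, libraries and lines. A single result of the macrophage list is not reported here.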

Additional observations from a re-analysis of the deposited data

Results flagged for a closer look

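The KO tumour of line 19 at day 16 with letter B had 2.61 osteoclast-like cells per 100 C1q macrophages plus osteoclast-like cells, on 3 such cells, while the other 5 KO tumours of that day had 0 to 0.807. It stood apart from the other tumours of its group. Chance marks about 1 in 20 groups this way, and 31 groups were examined, so a flag by chance is likely among them.

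The change of the osteoclast-like share from day 6 to day 16 differed between the control lines by -4.91 percentage points, line 18 minus line 15 (exact permutation p = 0.005, the smallest value the test allows), and the lines moved in opposite directions.

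Some changes within osteoclast-like cells differed from those of C1q macrophages of the same tumours. For line 18 against line 15 the log2 fold change of Ptpre was lower in osteoclast-like cells by -0.95 (edgeR adjusted p 0.0112) and that of Ccl9 by -0.90 (edgeR adjusted p 0.00915). For day 16 against day 10 the log2 fold change of Gadd45g was higher in osteoclast-like cells by 0.82 (edgeR adjusted p 0.0148) and that of Cfp by 0.85 (edgeR adjusted p 0.000508). These comparisons were added after the data had been seen.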

How the results depend on the processing

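The lower osteoclast-like share of KO tumours kept its direction and its side of the threshold in all 12 alternatives, from -2.18 percentage points with the stricter gate to -3.18 with the stricter hashtag call, and at -14.9 per 100 C1q macrophages plus osteoclast-like cells. Without a line it ran from -2.25 to -3.11. The difference between day 16 and day 6 was not called in any alternative. Its sign reversed to -0.0198 with the stricter cell filter, -0.0781 with the stricter hashtag call, -0.108 in single-line libraries, -3.22 per 100 C1q macrophages plus osteoclast-like cells and -0.85 without line 15, where p was 0.05, and without a line it ran from -0.85 to 0.912. The planned fit of osteoclast-like cells between KO and control was not run, because no KO tumour held more than 3. The line difference in time course held in all 6 alternatives, each with an exact permutation p of 0.005, the smallest value the test allows.

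The 5017 genes called between the classes became 2855 in mixed libraries, 2771 with cells thinned to 3000 UMIs, where 6181 genes were tested, and 3106 without line 15. Without line 18 it was 3915. The KO lines do not enter this fit, so leaving them out was not run. With no replicate block 4658 genes were called, and 4453 of them were shared with the paired fit. For named genes, 2035 values under alternatives kept their direction and side of the threshold, 95 lost the call and 1 reversed, that of Mif, at 0.0275 with 1 sum per line.

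The 21 genes called between lines became 12 with the stricter cell filter, 0 with the thinned gate, 2 with the stricter gate, 104 without the deepest cells, 242 without a count filter, 0 with at least 20 cells, 8 with thinned cells, 451 in single-line libraries and 121 in DESeq2. In the single-line libraries each line was in its own library, so line and library cannot be told apart there. Without a tumour the count ran from 0 to 314. For line 15 it was 4, 0 and 314 without day 10 tumours A, B and C and 0 and 2 without day 16 tumours A and B. For line 18 it was 0, 2 and 79 without day 10 tumours A, B and C and 5, 0 and 43 without day 16 tumours A, B and C. The 18 genes called between days became 3 with the thinned gate, 4 with the stricter gate, 78 without a count filter, 7 with at least 20 cells and 8 with thinned cells. Without a tumour the count ran from 3 to 32. It was 3, 5 and 32 without day 10 tumours A, B and C of line 15, 9 and 5 without its day 16 tumours A and B, 9, 5 and 9 without day 10 tumours of line 18 and 11, 10 and 5 without its day 16 tumours. The cause was not tested. Apoe was called in all 23 alternatives of the day comparison, Gadd45g in 22 and Cfp in 21. Car2 was called in 16 of 23 alternatives of the line comparison, Ptpre in 14, Ccl9 in 13, Spi1 in 10 and Mgp in 9, and Lyz2 in 12 of 23 of the day comparison.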
